A study of Mus musculus with 4 samples.

Results

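The sarcomeric thin filament is described here through 10 mouse genes: the actins Acta1, Actc1 and Acta2, the troponins Tnnt2, Tnni3, Tnnc1, Tnni1 and Tnnt1, and the tropomyosins Tpm1 and Tpm2. They were taken by name, as isoforms of the adult and the fetal heart, and not by their measured values. Every probe set whose only gene symbol in the array annotation is one of these names was included, which gave 20 of the 45037 probe sets tested and 10 of 18193 genes. The data come from 4 single-colour Affymetrix arrays of heart RNA from untreated C57B6 mice aged 3.6 months. Of these, 2 arrays hold wild-type hearts and 2 hold hearts with a knock-in that puts alanine in place of serine 21 of the kinase GSK-3α. The labels name no Cre driver or other allele, and they do not say that each array is a separate animal, so n counts arrays and the p-values measure only the spread between these samples, which may be technical. Values are log2 signals, and differences are knock-in minus wild-type on the log2 scale, tested with limma and adjusted by Benjamini-Hochberg over all probe sets at a threshold of 0.05.

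In striated muscle the thin filament is a double strand of actin carrying tropomyosin and the troponin complex. Troponin C binds calcium, troponin I holds the filament in the inhibited state at rest, and troponin T anchors the complex to tropomyosin, which moves over actin to uncover the sites where myosin binds. The heart draws on several isoforms of each part: the fetal heart uses slow skeletal troponin I and some skeletal actin, the adult mouse heart mainly uses the cardiac forms, and skeletal actin is a known marker of the response to pressure overload. Acta2 is the main actin of vascular smooth muscle and is also made by the early embryonic heart and by activated fibroblasts.

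The labelled tissue was checked on its defining markers, and the cardiomyocyte genes Myh6, Ryr2, Mybpc3, Actn2 and Ttn had signals between 13.06 and 14.71 on the 4 arrays. The knock-in arrays also carried more of the transcripts typical of liver. All 14 measured liver markers of 15 listed were higher in the knock-in hearts, where 46.9% of all genes were. Limma called 0 of the 14, with a lowest adjusted p of 0.153. The markers' mean log2 level was 6.24 and 5.63 on wild-type replicates 1 and 2 against 8.92 and 7.42 on knock-in replicates 1 and 2. The ratio of 3′ to 5′ signal of the actin control probe sets was highest on knock-in replicate 2, at 0.51 log2 units against 0.38 to 0.41 on the other arrays. The part of either in the values below was not tested. The targeted gene Gsk3a read 11.16 and 11.08 on the wild-type arrays, and 10.62 and 10.80 on the knock-in arrays. Its groups were apart, with a difference of −0.42 and a 95% interval from −0.70 to −0.14 (limma adjusted p = 0.458). A codon change need not alter its transcript, and the cause of the lower signal was not tested.

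No thin filament gene passed the test. Limma called 0 of the 20 probe sets, where it called 0.00666% of all probe sets, and the lowest adjusted p among the 20 was 0.352. At a threshold of 0.10 it also called 0 of the 20, where it called 0.0111% of all. At an unadjusted p under 0.05, 4 of the 20 were higher and 1 was lower, where 5.07% and 5.62% of all probe sets lay. Both knock-in values lay above both wild-type values for 10 of the 20 and below them for 3, against 18.5% and 26.7% of all probe sets. For the gene level the brightest probe set stands for its gene. By these, 8 genes were higher in the knock-in hearts and 2 were lower, and the median difference was 0.07, while 46.9% of all genes were higher, with a median of −0.01. Most of the family is very bright, and among the 577 genes with a mean of at least 12, a level chosen after the values were seen, 64.1% were higher, with a median of 0.03. Arrays shifted to 1 median gave a family median of 0.13, quantile normalisation and cyclic loess each gave 0.03, and after quantile normalisation 6 genes were higher and 4 lower.

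**Figure D1:**
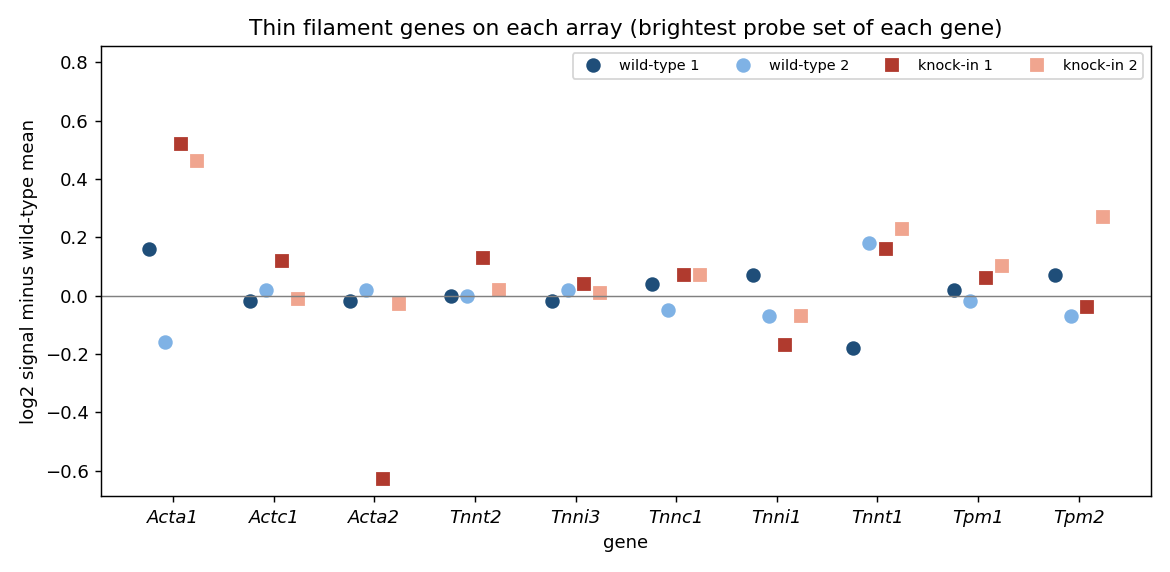
Log2 signal of each gene on each array minus its wild-type mean, for the brightest probe set of the 10 thin filament genes; circles are wild-type arrays and squares knock-in arrays. Acta1 lies above its wild-type values on both knock-in arrays, Acta2 is low on knock-in replicate 1 alone, and the range over the 4 arrays is 0.14 or less for Actc1, Tnnt2, Tnni3, Tnnc1 and Tpm1.

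Among the actins, the skeletal isoform had a larger signal in knock-in than in wild-type hearts. The cardiac isoform hardly differed, and the smooth muscle isoform was low on a single array. Acta1, which encodes skeletal α-actin, read 12.61 and 12.29 on the wild-type arrays and 12.97 and 12.91 on the knock-in arrays. Both knock-in values lay above both wild-type values, and the wild-type arrays differed from each other by more than the knock-in arrays did. The means were 12.45 ± 0.22 (SD, n = 2) and 12.94 ± 0.05 (SD, n = 2), a difference of 0.49 or 1.41-fold with a 95% interval from 0.17 to 0.82 (limma adjusted p = 0.458). The difference lay between 0.33 and 0.65 when 1 array was left out. By the brightest probe sets the groups were apart for 6 of the 10 genes, 4 higher and 2 lower in the knock-in hearts. Of all genes 22.5% and 24.1% were, so a separation of 2 arrays from 2 is common here. Any margin counts. The nearest wild-type and knock-in values were 12.66 and 12.65 for Acta2 and 14.22 and 14.24 for Tnnt2. For Tnni1 both were 6.46 as rounded here.

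Actc1, the cardiac α-actin of the adult sarcomere, read 14.56 and 14.60 in wild-type and 14.70 and 14.57 in knock-in hearts. The groups overlapped, and the difference was 0.05 with an interval from −0.21 to 0.32 (limma adjusted p = 0.857). Without knock-in replicate 1 it was −0.01.

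The proximal promoters of the 3 actin genes are shown because these paralogs gave different values although all are known targets of serum response factor, which binds the CArG box. The windows run from 250 bases before to 50 bases after the start site, in RefSeq sequence of build GRCm38.p6, and each is written 5′ to 3′ in the direction of the gene. Capitals mark CArG boxes, in which CC and GG flank 6 bases of A or T, and near matches with 1 of those 6 bases replaced by G or C.
Acta1 promoter, chr8:123894726-123895025, minus strand: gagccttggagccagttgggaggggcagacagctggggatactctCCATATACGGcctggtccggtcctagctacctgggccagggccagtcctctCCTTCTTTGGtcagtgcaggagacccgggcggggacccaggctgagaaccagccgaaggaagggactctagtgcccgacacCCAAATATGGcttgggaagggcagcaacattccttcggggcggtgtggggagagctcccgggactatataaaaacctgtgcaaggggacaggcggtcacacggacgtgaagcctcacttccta
Actc1 promoter, chr2:114052826-114053125, minus strand: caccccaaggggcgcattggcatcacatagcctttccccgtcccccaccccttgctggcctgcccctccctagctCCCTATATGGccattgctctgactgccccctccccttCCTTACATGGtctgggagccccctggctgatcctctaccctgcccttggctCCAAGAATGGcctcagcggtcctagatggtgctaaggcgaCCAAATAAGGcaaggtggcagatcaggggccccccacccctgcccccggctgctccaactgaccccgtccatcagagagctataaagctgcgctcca
Acta2 promoter, chr19:34255324-34255623, minus strand: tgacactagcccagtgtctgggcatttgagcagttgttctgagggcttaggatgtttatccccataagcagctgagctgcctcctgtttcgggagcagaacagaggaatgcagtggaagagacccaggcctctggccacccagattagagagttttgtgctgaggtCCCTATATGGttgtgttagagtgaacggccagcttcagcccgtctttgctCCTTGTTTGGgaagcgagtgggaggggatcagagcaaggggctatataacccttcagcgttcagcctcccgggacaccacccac

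The Acta1 window holds 1 exact CArG box, CCAAATATGG, and 2 near matches, and the Actc1 window holds 1 exact box, CCAAATAAGG, and 3 near matches. The Acta2 window holds 0 exact boxes and 2 near matches, CCCTATATGG and CCTTGTTTGG. RefSeq windows matched all 10 genes, 12 windows in all, and the other 7 genes hold neither form. Of 32851 promoter windows of this length, 1.63% hold an exact box and 8.5% a near match on either strand. The M-CAT element CATTCC, bound by TEAD factors, is present on either strand in Acta1, Acta2, Tnnt2, Tnnc1 and Tpm1, against 14.7% of all windows, and does not overlap the CArG matches. The MEF2 site is in 0 of the 12 windows, against 3.19% of all. A match describes the letters of the window and is not evidence that a factor binds there.

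Acta2 was represented by a probe set whose name ends in s_at, a suffix Affymetrix gives to probes that can match transcripts of more than 1 gene. It read 12.66 and 12.70 in wild-type hearts and 12.05 and 12.65 in knock-in hearts. Knock-in replicate 1 was low, while knock-in replicate 2 lay just below both wild-type values. The difference was −0.34 with an interval from −0.80 to 0.13 (limma adjusted p = 0.528), and −0.04 without knock-in replicate 1. The gene's 2 other probe sets lay below the array median on every array, with differences of −0.06 and −0.04, and they add no readable level.

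Other contractile genes of smooth muscle were split on knock-in replicate 1. Tagln, which encodes the actin-binding protein SM22, read 10.78 and 10.69 in wild-type hearts, 10.52 on knock-in replicate 1 and 11.10 on knock-in replicate 2. The calponin gene Cnn1 read 7.32, 7.14, 6.79 and 7.47 in the same order, and the myosin light chain gene Myl9 read 10.15, 10.04, 9.69 and 10.26. These lay below both wild-type values on that array. Myh11, Smtn, Mylk, Cald1 and Synpo2 lay above both wild-type values on each knock-in array. That is 5 of the 10 markers by their brightest probe sets, against 22.5% of all genes. Myh11, the smooth muscle myosin heavy chain, read 8.68, 8.58, 8.79 and 9.01, and the smoothelin gene Smtn 10.01, 9.89, 10.15 and 10.45. Of 10 smooth muscle markers, 4 had their lowest value on knock-in replicate 1 and all 10 had their highest on knock-in replicate 2. The share of all genes with their lowest or highest value on those arrays was not counted. The list's mean log2 level was 9.31 on both wild-type arrays, 9.26 on knock-in replicate 1 and 9.61 on knock-in replicate 2. By group, 8 of the 10 had the higher mean in knock-in hearts, and the median difference was 0.12 (0.03 without knock-in replicate 2, 0.27 without knock-in replicate 1, 0.19 without wild-type replicate 2, and 0.05 and 0.07 after quantile normalisation and cyclic loess). At an unadjusted limma p under 0.05 there was 1, which was higher, against 992 of 18193 genes. Limma called 0 of the 10 markers. Acta2 shared the low value of knock-in replicate 1 with Tagln, Cnn1 and Myl9 and not with the 5 markers above, and was not high on knock-in replicate 2. This contrast is given for the brightest probe sets alone. Of those 5 markers only Smtn had a single probe set. The lowest probe set differences of Myh11, Mylk, Cald1 and Synpo2 were −0.15, −0.10, −0.32 and −0.04. In bulk tissue fewer cells of a type and less RNA per cell cannot be told apart.

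**Figure D2:**
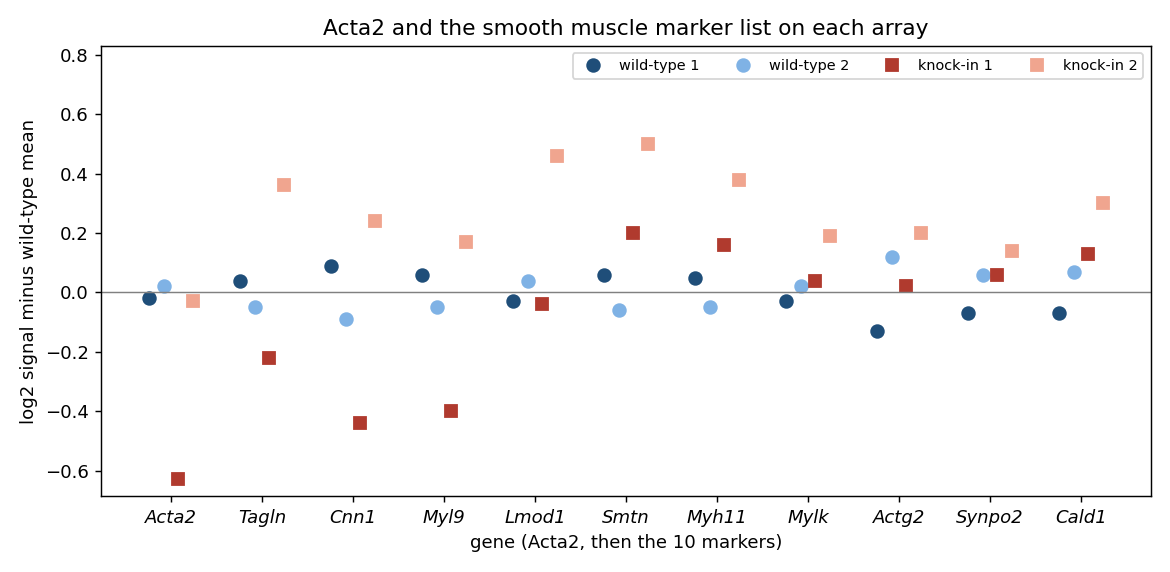
Log2 signal on each array minus the wild-type mean for Acta2 and the 10 smooth muscle markers, each by its brightest probe set. Circles are wild-type arrays and squares knock-in arrays. On knock-in replicate 1 Acta2, Tagln, Cnn1 and Myl9 lie below both wild-type arrays while Myh11, Smtn, Mylk, Cald1 and Synpo2 lie above both, and on knock-in replicate 2 each of the 10 markers has its highest value.

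Fibroblast markers are given because activated fibroblasts make Acta2, and any link to its values was not tested. By the brightest probe sets all 10 markers were higher by group, where 46.9% of all genes were. The other probe sets of Dcn, Col1a1 and Tcf21 were lower, at −0.30, −0.23 and −0.15. Those of Col3a1, Pdgfra, Smoc2, Serpinf1 and Col1a2 were all higher. The markers' median difference was 0.20 (0.13 after quantile normalisation or cyclic loess, 0.31 without knock-in replicate 1, and 0.11 with 9 of 10 higher without knock-in replicate 2). At an unadjusted limma p under 0.05, 3 were higher, against 992 of 18193 genes. Limma called 0 of the 10 markers. Their mean log2 level was 10.58 and 10.48 on wild-type replicates 1 and 2, 10.63 on knock-in replicate 1 and 10.86 on knock-in replicate 2. Of the 10, 1 was lowest on knock-in replicate 1, and all 10 were highest on knock-in replicate 2, as the smooth muscle markers were. Of 8 endothelial markers 5 were highest on knock-in replicate 2, and of 10 cardiomyocyte markers 1 was. The share of all genes that were highest there was not counted. The endothelial markers' median difference was 0.19. The 5 pericyte markers had a median difference of 0.06 (−0.02 after quantile normalisation or cyclic loess) and a mean level between 10.90 and 11.03.

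The troponin genes of the adult heart differed little between the groups. Tnni3, cardiac troponin I, read 14.65 and 14.69 in wild-type and 14.71 and 14.68 in knock-in hearts. Its groups overlapped, and the difference of 0.03 had an interval from −0.22 to 0.28. Tnnc1, the troponin C of heart and slow muscle, read 14.16 and 14.07 against 14.19 and 14.19. Its knock-in values lay just above, by 0.07 with an interval from −0.18 to 0.33. The sign for Tnni3 turned after quantile normalisation (−0.01), whereas that for Tnnc1 held in every setting run.

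Tnnt2, cardiac troponin T, had 3 probe sets that did not give 1 picture. The brightest, 1424967_x_at, has a suffix that marks probes that can match other transcripts. It read 14.22 on each wild-type array and 14.35 and 14.24 on the knock-in arrays, a difference of 0.07 (interval −0.19 to 0.33). The second, 1418726_a_at, read 14.08 on each wild-type array and 14.33 and 14.15 on the knock-in arrays, a difference of 0.16 (interval −0.12 to 0.43). Without knock-in replicate 1 these became 0.02 and 0.06. Both were slightly higher on each knock-in array. The third, 1440424_at, was much dimmer and went the other way, with 10.19 and 10.58 on the wild-type arrays and 9.62 and 9.94 on the knock-in arrays. Its difference was −0.60, or 1.52-fold lower, with an interval from −1.02 to −0.19 (limma adjusted p = 0.458), and it stayed between −0.80 and −0.41 when 1 array was left out. Averaging the 3 probe sets gave Tnnt2 a difference of −0.13, so the sign for the gene depends on the probe set. The annotation gives no position for the probes, and which transcript form 1440424_at reads is not known here.

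The slow skeletal troponins were dimmer. Tnni1, the troponin I of the fetal heart and of slow skeletal muscle, read 6.60 and 6.46 in wild-type and 6.36 and 6.46 in knock-in hearts, close to the array medians of 6.14 to 6.23. Its difference was −0.12 with an interval from −0.40 to 0.15 (limma adjusted p = 0.662). Tnnt1, slow skeletal troponin T, read 8.27 and 8.63 against 8.61 and 8.68. Wild-type replicate 1 was the low value there, and the difference of 0.19 (interval −0.15 to 0.54) became 0.01 without it. Troponin genes lie in pairs along the genome: in the RefSeq gene table Tnnt1 and Tnni3 are neighbours on chromosome 7 with 0 protein-coding genes between them, and Tnni1 and Tnnt2 on chromosome 1 are separated by Lad1 alone. Gsk3a also lies on chromosome 7, with 445 protein-coding genes between it and Tnni3.

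The tropomyosin probe sets also differed among themselves. The brightest Tpm1 probe set, for α-tropomyosin, the form that dominates the adult mouse heart, was also the brightest on each array. It read 15.01 and 14.97 in wild-type and 15.05 and 15.09 in knock-in hearts, a difference of 0.07 with an interval from −0.18 to 0.32. No probe set exceeded it, so it lies at the top of the measured range, where array signals are known to compress differences. Quantile normalisation, which gives every array the same maximum, set its difference to 0.00.

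The 3 dimmer Tpm1 probe sets were all higher in the knock-in hearts. For 1456623_at the values were 8.22 and 7.90 in wild-type and 8.82 and 8.98 in knock-in hearts. Its means of 8.06 ± 0.23 (SD, n = 2) and 8.90 ± 0.11 (SD, n = 2) differed by 0.84, or 1.79-fold, with an interval from 0.49 to 1.18 (limma adjusted p = 0.352). This was the highest difference among the 20 probe sets, and it was at least 0.67 whichever array was left out. For 1447713_at the values were 9.81 and 10.08 against 10.66 and 10.17, a difference of 0.47 (interval 0.03 to 0.92) that became 0.23 without knock-in replicate 1. For 1423721_at they were 8.67 and 8.87 against 8.94 and 9.02, a difference of 0.21 (interval −0.08 to 0.49) that became 0.11 without wild-type replicate 1. Tpm1 is spliced into many forms, and probe sets of 1 gene can read different forms. The annotation used here does not say which.

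Tpm2, β-tropomyosin, which the fetal heart and slow skeletal and smooth muscle use more than the adult heart, read 10.58 and 10.44 in wild-type and 10.47 and 10.78 in knock-in hearts by its brightest probe set. The groups overlapped, and the difference of 0.12 (interval −0.22 to 0.45) turned to −0.04 without knock-in replicate 2. For 1425028_a_at the values were 8.80 and 8.65 against 8.89 and 9.23, a difference of 0.33 (interval −0.01 to 0.68) that became 0.16 without knock-in replicate 2 and 0.50 without knock-in replicate 1, and for 1419739_at the difference was 0.11. The fourth probe set, 1449577_x_at, lay below the median of every array, at 4.13 and 4.36 against 4.78 and 4.52, a difference of 0.40 (interval 0.06 to 0.74); its suffix x_at marks probes that can match other transcripts. All 8 tropomyosin probe sets had the higher mean in the knock-in hearts, as did 18665 of all 45037. Limma called 0 of the 8. At an unadjusted limma p under 0.05 lay 3, of which the dim 1449577_x_at was 1, where 5.07% of all probe sets were higher. The sign of 1419739_at turned without knock-in replicate 1 (−0.03), and after quantile normalisation that of the brightest Tpm1 probe set was lost. Probe sets of 1 gene share their RNA, and these 8 stand for 2 genes.

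**Figure D3:**
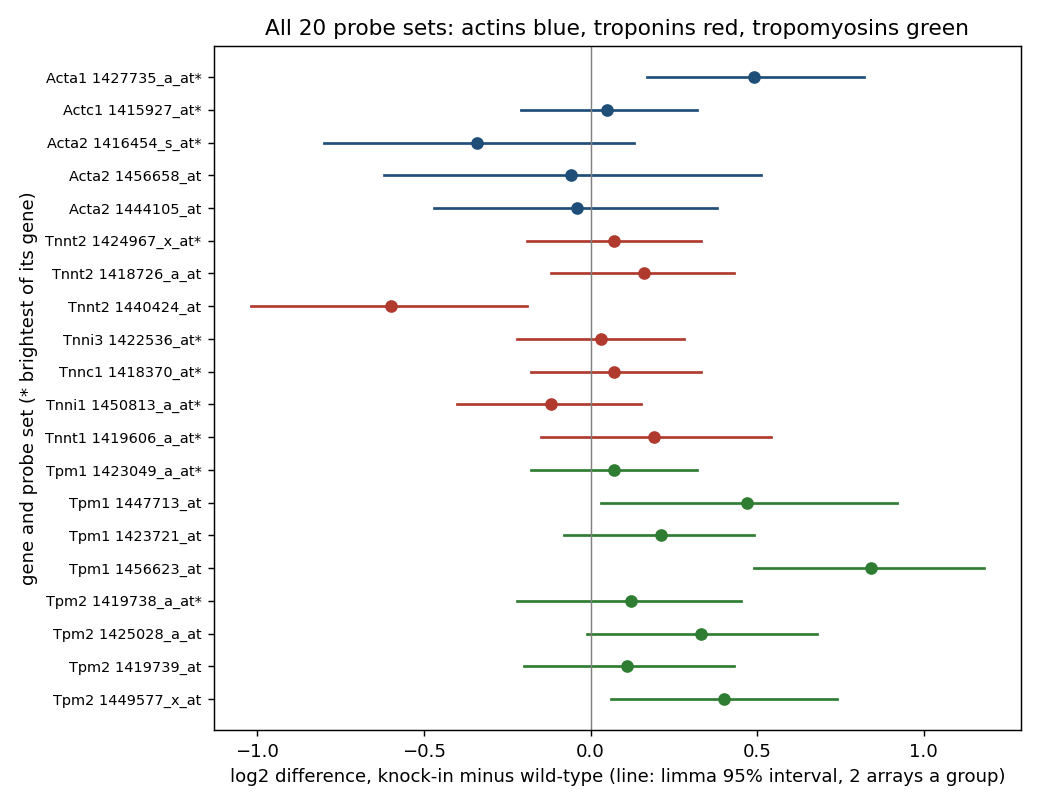
Log2 difference, knock-in minus wild-type, of each of the 20 probe sets with its limma 95% interval (2 arrays a group); the brightest probe set of each gene carries an asterisk. The bright probe sets of Actc1, Tnnt2, Tnni3, Tnnc1 and Tpm1 lie between 0.03 and 0.16, while Tpm1 1456623_at at 0.84 and Tnnt2 1440424_at at −0.60 mark the ends of the range.

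Isoform balances ask whether 1 isoform differed more than its partner on the same arrays; they set changes side by side and say nothing of which isoform is the more abundant. Skeletal over cardiac actin, Acta1 minus Actc1, was 0.44 higher in the knock-in hearts (0.26 without wild-type replicate 2). Relative to the wild-type mean this balance was 0.18 and −0.18 on the wild-type arrays and 0.40 and 0.47 on the knock-in arrays, so the groups did not overlap. The balance of Acta2 over Actc1 differed by −0.39, with −0.76 on knock-in replicate 1 and −0.02 on replicate 2. That of Tnni1 over Tnni3 differed by −0.15 and that of Tnnt1 over Tnnt2 by 0.12, both with overlapping groups. Tpm2 over Tpm1 differed by 0.04, with −0.09 and 0.18 on the knock-in arrays. A two-sided exact permutation test of 2 against 2 arrays cannot give a p below 0.333, which both actin balances reached; over the 5 pairs the adjusted values were 0.833 to 1.

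**Figure D4:**
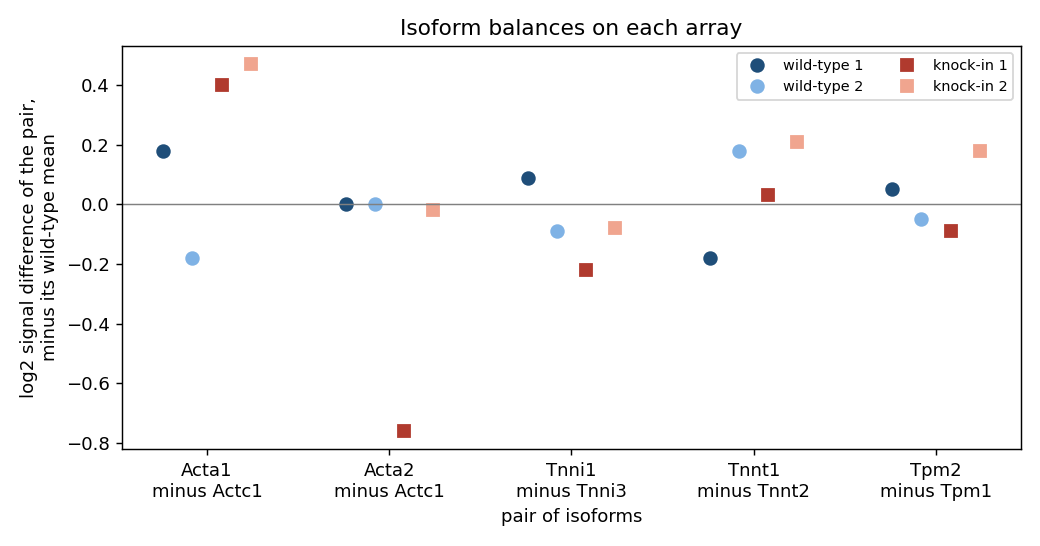
Difference in log2 signal between 2 isoforms on each array, minus its wild-type mean, for 5 pairs; circles are wild-type arrays and squares knock-in arrays. Acta1 minus Actc1 stands at 0.40 and 0.47 on the knock-in arrays, and the groups overlap for both troponin pairs and for the tropomyosin pair.

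Other genes of the thin filament and its ends were mostly a little higher in the knock-in hearts. Of 20 genes on this list 15 had the higher mean there (14 after quantile normalisation or cyclic loess, 17 with arrays shifted to 1 median). Of all genes 46.9% did, and of genes with a mean of at least 12, 64.1% did. The list's median difference was 0.11 (0.05 after quantile normalisation or cyclic loess, 0.17 with arrays shifted to 1 median, 0.06 without knock-in replicate 2). It was −0.01 for all genes and 0.03 for those bright ones. Limma called 0 of the 20, and at an unadjusted p under 0.05 there were 4, all of them higher, where 992 of 18193 genes were. Tmod4, a tropomodulin that caps the slow-growing end of actin filaments in skeletal muscle, read 8.65 and 8.62 in wild-type and 9.32 and 9.43 in knock-in hearts. Its difference was 0.75 (interval 0.49 to 1.01), with a limma adjusted p of 0.261, the lowest on the list. The heart's own tropomodulin gene Tmod1 differed by 0.15 (0.09 after quantile normalisation or cyclic loess) and the leiomodin gene Lmod2, whose product lengthens filaments at that end, by 0.27. Lmod2 read 12.62 and 12.62 against 12.89 and 12.89. Of the cytoplasmic actins Actg1 differed by 0.37 and Actb by −0.28, each with its groups apart; without wild-type replicate 2 that of Actb was −0.14. The nebulin gene Neb differed by 0.59, but at signals of 3.91 to 4.62, below the array medians.

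**Figure D5:**
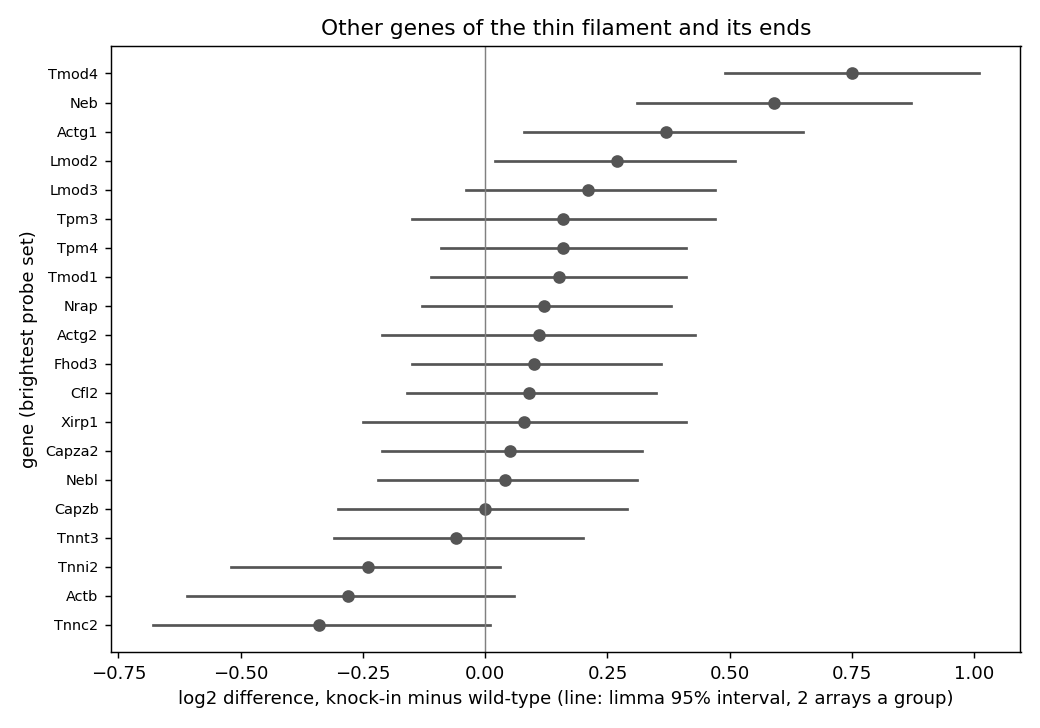
Log2 difference, knock-in minus wild-type, of 20 other genes of the thin filament and its ends, each by its brightest probe set with the limma 95% interval (2 arrays a group). Tmod4 at 0.75 and Neb at 0.59 stand highest, and Tnnc2 at −0.34 lowest.

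The fast skeletal partners of the troponins stayed dim. Tnnc2 read between 4.98 and 5.56 and Tnnt3 between 4.93 and 5.06 on the 4 arrays, below every array median, and Tnni2 between 6.41 and 6.78. Of 14 fast skeletal muscle markers 7 lay below the median on every array, among them Myh4 and Myh1, and 9 of 14 were lower in the knock-in hearts, with a median of −0.14 (−0.08 with arrays shifted to 1 median or after cyclic loess, −0.03 without wild-type replicate 1, −0.21 without wild-type replicate 2). The list's mean log2 level was 6.37 and 6.21 on the wild-type arrays and 6.23 and 6.18 on the knock-in arrays, and its part in the Acta1 values was not tested. Among the 5 that were higher was Myl1, a light chain of fast muscle, at 10.12 and 10.20 on the wild-type arrays and 10.68 and 10.56 on the knock-in arrays.

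Transcription factors known to act on sarcomere genes differed little. Of 17 on the list 7 had the higher mean in knock-in hearts and the median was −0.02, while with arrays shifted to 1 median 10 did and the median was 0.04. After quantile normalisation, after cyclic loess and without knock-in replicate 2, 4 of the 17 did, with medians of −0.07, −0.09 and −0.11, and without knock-in replicate 1, 10 did, with 0.05. Limma called 0, and 0 lay at an unadjusted p under 0.05. Srf, the factor that binds the CArG box, read 9.95 and 9.96 in wild-type and 9.82 and 10.10 in knock-in hearts, a difference of 0.01 (interval −0.30 to 0.31) that became −0.07 after quantile normalisation or cyclic loess, −0.13 without knock-in replicate 2 and 0.14 without knock-in replicate 1. Its partners Myocd and Mrtfa each differed by −0.21 by their brightest probe sets, with overlapping groups. By these Myocd was at −0.03 without knock-in replicate 1, and Mrtfa at −0.09 without wild-type replicate 1. The other Myocd probe set differed by 0.01. Gata6, a zinc finger factor of heart development, was the most negative, at −0.28 (interval −0.57 to 0.01). On knock-in replicate 1, 11 of the 17 had their lowest value, and the share of all genes that did was not counted. By its brightest probe set Myocd read 9.37 there against 9.65, 9.86 and 9.72 on the other arrays. A link to the Acta2 values was not tested.

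Acta1 belongs to the fetal gene programme, the set that the heart takes up again under load, and its companions were split. Myh7, the slow myosin heavy chain, read 10.89 and 10.83 in wild-type and 11.51 and 11.87 in knock-in hearts, a difference of 0.83 (limma adjusted p = 0.36). The atrial light chain gene Myl4 differed by 0.42 by its brighter probe set, with its groups apart, and by −0.09 by its other one. The natriuretic peptide genes Nppa and Nppb differed by −0.02 (0.04 with arrays shifted to 1 median) and 0.05 (−0.00 after cyclic loess), and the stretch-responsive gene Ankrd1 by −0.23. Without wild-type replicate 1 Nppb was at −0.25 and Ankrd1 at −0.39, and without wild-type replicate 2 they were at 0.34 and −0.06. With Acta1 and Tnni1 counted, 5 of the 8 genes had the higher mean in knock-in hearts and the median was 0.07. It was 0.01 after quantile normalisation or cyclic loess, the latter with 4 of 8 higher, 0.13 with arrays shifted to 1 median, and 0.16 and 0.11 without wild-type replicate 2 and without knock-in replicate 2. Limma called 0, and at an unadjusted p under 0.05 there were 3, all of them higher and 1 of them Acta1 itself. Of all 18193 genes, 992 were higher at that p. Of the other atrial markers Myl7 differed by 0.09 and Sln by 0.24, which without knock-in replicate 1 became −0.01 and −0.07, and Bmp10 by −0.24 (−0.13 after cyclic loess). The atrial list's mean level was 10.43 and 10.31 on the wild-type arrays and 10.58 and 10.36 on the knock-in arrays.

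Among the 10 genes Acta1 had the widest range over the 4 arrays, 0.68. The genes whose pattern over the arrays was most like it, by Pearson's r among 4090 genes with a mean of at least 7 and a range of at least 0.3, were, over 4 points, Ciao1 (0.9994), Tmlhe (0.9973) and Gpcpd1 (0.9965). Of the 4090 genes, 110 had an r of at least 0.95. Ciao1, for one, read 10.20 and 10.05 in wild-type and 10.39 and 10.36 in knock-in hearts.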

How the data were processed

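Gene expression was measured in 2 wild-type and 2 knock-in heart RNA samples. The deposited values are log2 summaries per probe set, which the authors made by RMA with the Affymetrix Expression Console, as the submitters' processing notes state. The labels say that the wild-type arrays went through normalisation with these knock-in arrays alone. RMA gives the arrays nearly the same distribution, so a change shared by most genes is removed. Neither the program's version nor a filter is given in the sources used here.

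Of 45101 probe sets, 64 controls were left out. Of the 45037 tested, 34945 had 1 gene symbol, 932 several and 9160 none. The fit used R 4.3.3 and limma 3.58.1 (lmFit, eBayes, no covariate, 2 residual and 4.54 prior degrees of freedom) and was tested on simulated data. Precision is limited by the number of arrays, with a median standard error of 0.121. Replicate numbers were not taken as pairs, since same-numbered arrays deviated together with a correlation of only 0.085. Promoter windows and gene order came from RefSeq, assembly GRCm38.p6, which all 10 gene IDs matched. Tables and plots used Python 3.11.15, pandas 2.3.3 and matplotlib 3.10.9.

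The members and lists were chosen with earlier results of these data known, so lists are described by counts and medians only. The genes named are all members, list members by a written rule (defining markers and smallest p), and the 3 genes most like the member of widest range; Myl1, Myl4, Ankrd1 and the CArG examples were singled out after their values were seen. The alternatives covered the prior, dim and cross-hybridising probe sets, normalisation, array weights, the replicate block, each array left out, the threshold and the probe set that stands for a gene.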

Additional observations from a re-analysis of the deposited data

How the results depend on the processing

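No thin filament probe set passed the threshold in any setting run, including a threshold of 0.10, and the lowest limma adjusted p per setting lay between 0.175 and 0.886. With the replicate number as a block 0 probe sets were called, the lowest adjusted p was 0.447 and the median difference of the 10 genes was 0.07, so the block changed no call. That median was 0.13 with arrays shifted to 1 median, 0.03 after quantile normalisation or cyclic loess, and 0.05 to 0.06 with 1 array left out; the scaling that shifts arrays to 1 median also moved the median of all genes from −0.01 to 0.05.

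Of 337 values recomputed, 310 kept their direction and side of the threshold, 21 turned sign and 6 were shifts of the family median. The cause was not tested. Many of the 310 could not change direction. The settings for the prior, the mean filter, array weights and the replicate block left the differences of the probe sets they kept unchanged. A balance could not pass the threshold either, since its exact permutation p cannot fall below 0.333. The 310 is therefore no measure of how robust the values are. After quantile normalisation Tnni3 was −0.01 and Tpm1 0.00, and after cyclic loess Tnni3 was −0.00. The dim Acta2 probe sets 1456658_at and 1444105_at gave 0.01 and 0.02 with arrays shifted to 1 median, 0.05 and 0.04 after quantile normalisation, and 0.06 and 0.05 after cyclic loess. Without probe sets ending in x_at or s_at, Acta2 was read by a dim probe set at −0.06, its balance over Actc1 was −0.11, and Tnnt2 was 0.16. With 1 array left out, the dim Acta2 probe sets ranged from −0.35 to 0.24 and from −0.31 to 0.22 (0.19 for the first without wild-type replicate 1), Actc1 from −0.01 to 0.12, Tpm2 from −0.04 to 0.27 and Tpm2 1419739_at from −0.03 to 0.25. Averaging probe sets gave Acta2 −0.14, Tnnt2 −0.13, Tpm1 0.40 and Tpm2 0.24, the balance of Tnnt1 over Tnnt2 0.32 and that of Tpm2 over Tpm1 −0.16, which was −0.01 after cyclic loess and −0.09 to 0.18 with 1 array left out. The balance of Tnnt1 over Tnnt2 ranged from −0.06, without wild-type replicate 1, to 0.31.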
